A study of Mus musculus with 18 samples.

Results

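Barx1, Barx2, Pitx1, Msx1, Msx2, Vax2 and Tbx4 are transcription factor genes that pattern the limbs, jaws, teeth, gut and eyes of the embryo. These 7 genes of 23421 in the table were taken by symbol, and they were selected on their FPKM values in the Eed comparisons of these libraries. FPKM is a fragment count scaled for transcript length and library size, a level per length, so levels of different genes can be set side by side. All 7 symbols were found, with 8 transcripts, since Tbx4 has 2. The label names homeobox genes, which fits 6 of them, and Tbx4 belongs to the T-box family.

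The study asked how Polycomb repressive complex 2 (PRC2) bears on transcription, and 6 RNA-seq libraries, 1 per group, were analysed. All were mouse embryonic stem (ES) cells of 129/Ola background grown in 15% serum with leukemia inhibitory factor, or embryoid bodies (EBs) made from them. The EB libraries labelled Eed KO and WT came from EBs of the E36 ES line, knockout for Eed and wild type. The EBs, free-floating aggregates that differentiate once the inhibitory factor is removed, were started from 1000 cells per 20 µl hanging drop for 48 hours. They were given 0.5 µM all-trans retinoic acid between day 2 and day 5 and cultured to day 9. The ES libraries labelled Eed KO and WT came from undifferentiated E36 cells of the same genotypes. The libraries shSetd2 and shCtrl came from wild-type E14 ES cells, another line, that carried a lentiviral hairpin against Setd2 or a scrambled one, were selected with puromycin and were harvested at day 4 after selection. The labels give neither the Eed allele nor the number of clones. The 12 ChIP-seq samples were not analysed here.

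PRC2 places methyl groups on lysine 27 of histone H3, with Eed as a scaffold subunit. In ES cells its trimethyl mark covers the CpG-rich promoters of many developmental transcription factors, which stay silent until a lineage uses them. Pitx1 sets hindlimb identity upstream of Tbx4, Barx1 acts in the mesenchyme of the stomach and the molar teeth, Msx1 and Msx2 respond to BMP signals in limb and face, and Vax2 marks the ventral retina.

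The promoter windows of the 4 members with a sequence differed in CpG content, a feature that Polycomb targets are known for. RefSeq sequences were found for 4 of the 7 genes, Tbx4, Barx1, Msx1 and Msx2, and the 250 bases before the annotated start are printed, 5′ to 3′ on the gene's strand, with CpG dinucleotides in capitals.
Barx1, GRCm38.p6, chr13:48662786-48663035, plus strand: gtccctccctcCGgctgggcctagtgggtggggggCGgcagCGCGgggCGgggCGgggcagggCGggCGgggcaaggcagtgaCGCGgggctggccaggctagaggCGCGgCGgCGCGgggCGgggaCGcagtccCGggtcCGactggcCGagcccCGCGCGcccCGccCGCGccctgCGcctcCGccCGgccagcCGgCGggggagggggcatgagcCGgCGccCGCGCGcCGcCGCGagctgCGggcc
Msx1, GRCm38.p6, chr5:37824586-37824835, minus strand: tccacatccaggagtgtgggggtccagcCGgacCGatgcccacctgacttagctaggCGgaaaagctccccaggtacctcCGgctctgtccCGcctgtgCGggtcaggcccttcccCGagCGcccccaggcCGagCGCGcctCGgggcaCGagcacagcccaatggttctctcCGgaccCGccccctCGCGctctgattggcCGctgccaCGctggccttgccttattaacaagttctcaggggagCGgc
Msx2, GRCm38.p6, chr13:53472781-53473030, minus strand: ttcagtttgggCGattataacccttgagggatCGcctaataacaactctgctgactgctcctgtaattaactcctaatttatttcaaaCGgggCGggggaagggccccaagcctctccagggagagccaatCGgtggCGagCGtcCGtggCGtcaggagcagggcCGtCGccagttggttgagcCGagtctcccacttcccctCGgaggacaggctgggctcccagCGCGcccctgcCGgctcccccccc
Tbx4, GRCm38.p6, chr11:85896515-85896764, plus strand: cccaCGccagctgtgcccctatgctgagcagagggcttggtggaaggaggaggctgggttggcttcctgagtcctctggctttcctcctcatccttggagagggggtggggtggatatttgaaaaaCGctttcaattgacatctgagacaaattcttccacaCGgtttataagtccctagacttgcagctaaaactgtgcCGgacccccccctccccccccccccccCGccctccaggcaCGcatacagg
The Barx1 window held 40 CpG and 85.6% G and C, more CpG than 98.7% of the 32851 promoter windows in the table. The Msx1 and Msx2 windows held 20 and 16 CpG, more than 82.1% and 74.6% of all windows. The Tbx4 window held 6 CpG, equal to the median of all windows. The motif TATAAA, searched on both strands, was found in the Tbx4 window of these 4 and in 12.4% of all windows. GGCGCC was found in the Barx1 window of these 4 and in 9.59% of all windows. TAATTA, a core that many homeodomains bind, was found in the Msx2 window of these 4 and in 4.84% of all windows. CCAAT was found in the Msx1 and Msx2 windows and in 33.8% of all windows. AGGTCA, the half-site of retinoic acid receptors, and AGGTGT, a T-box half-site, were found in 0 of the 4 windows, and in 14.02% and 11.8% of all windows. These matches describe letters only.

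Several values bear on the libraries themselves. Eed mRNA was 21.8 and 77.8 FPKM in the EB and ES libraries labelled Eed KO, against 25.04 and 72.3 in EB WT and ES WT, so it does not check those labels. Setd2 mRNA was 2.59 in shSetd2 and 16.8 in shCtrl. Trp53, summed over its transcripts, was 0.157 in the EB library labelled Eed KO and 70.7 in EB WT, and the Y-linked genes Eif2s3y, Ddx3y and Uty were at most 0.126 there and at least 4.70 in EB WT. Every Eed comparison in EBs rests on that 1 library. The ES pair was unequal as well. Trp53 was 76.2 in the ES library labelled Eed KO, 284 in ES WT and 75.1 in shCtrl. Eif2s3y was 20.4 in the ES library labelled Eed KO and 36.9 in ES WT, Ddx3y 4.52 and 10.2, and Uty 2.17 and 4.44. Relative depth, from the worth of 1 fragment in low values, was 0.796 in the EB library labelled Eed KO, and between 0.901 and 1.21 in the other libraries with ES WT set to 1. Since each group has 1 library, there is no replicate check, no test was run and no error can be attached to a difference.

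Differences are given as the difference of log2(FPKM + 1) between libraries, and a gene is called higher or lower where that difference is at least 1 in size and the gene reached an FPKM of 1 in a library concerned. The closest yardstick of spread is the comparison of the control ES libraries of different lines. Between shCtrl and ES WT, 95% of 12747 expressed genes differed by less than 1.26. Those libraries differ in cell line and in lentiviral treatment as well.

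In EBs the library labelled Eed KO had much higher Pitx1 and Barx1, higher Vax2 and Tbx4, lower Msx1, and nearly equal Msx2. In ES cells Barx1, Vax2, Msx2 and Pitx1 were higher in the library labelled Eed KO, at lower levels, and Msx1 and Barx2 were level. In bulk RNA, fewer cells of a type and less RNA per cell cannot be told apart. Of the 7 genes, 6 had their highest value in the EB library labelled Eed KO, and Msx1 had its highest in EB WT. At least 1 FPKM was reached by all 7 genes in the EB library labelled Eed KO, by 4 in EB WT, by 4 in the ES library labelled Eed KO, by 1 in ES WT, by 1 in shSetd2 and by 2 in shCtrl.

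**Figure D1:**
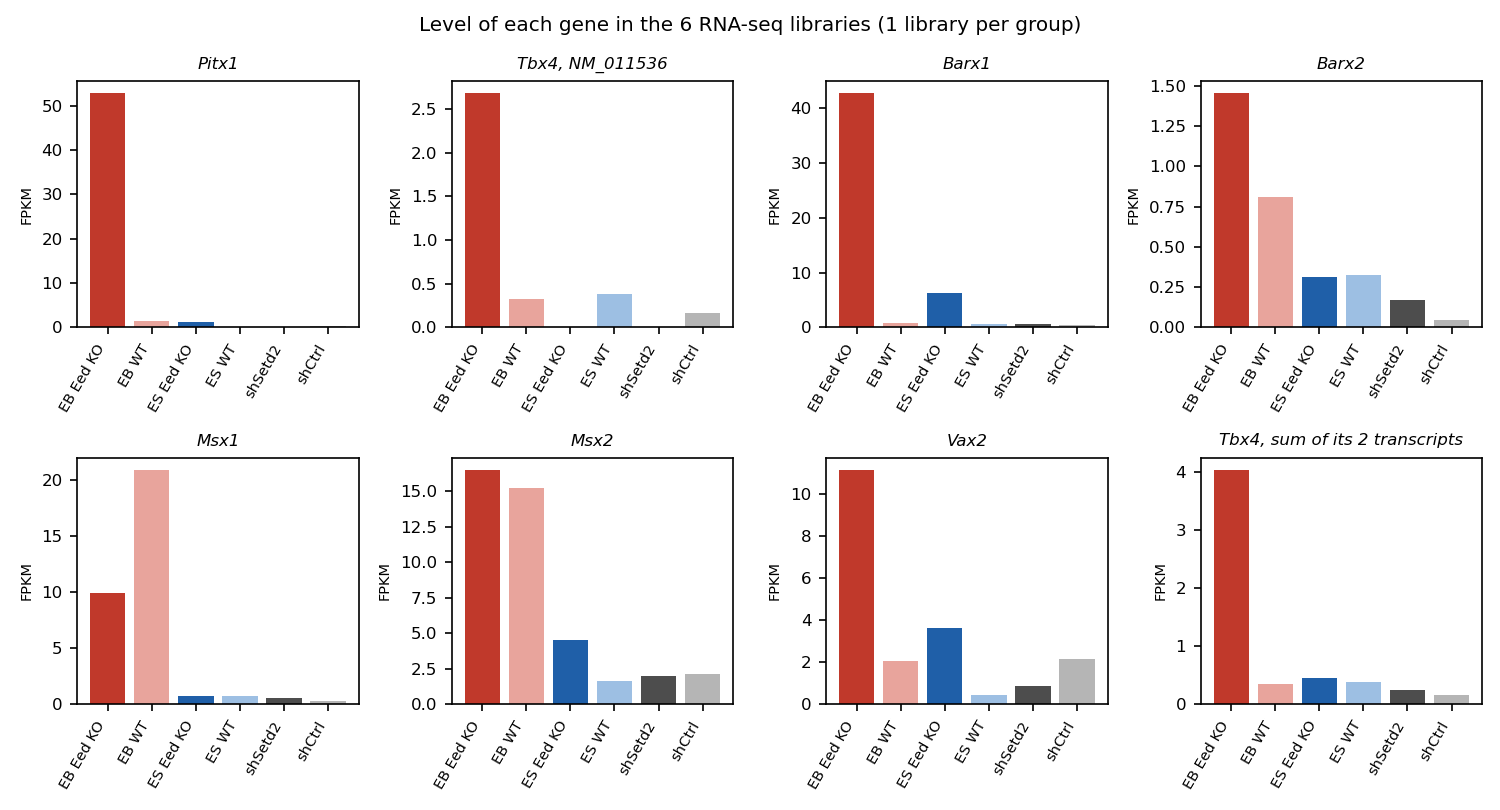
Level of each gene in FPKM, as bars from 0, in the 6 libraries, with 1 library per group and a separate scale per panel. Pitx1 reached 52.8 and Barx1 42.6 in the EB library labelled Eed KO, while Msx1 was highest in EB WT at 20.9. The last panel sums both Tbx4 transcripts.

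Pitx1, the paired-type homeobox gene of the hindlimb and pituitary (NM_011097, mm9 chromosome 13, 55926415 to 55932786), had 52.8 FPKM in the EB library labelled Eed KO and 1.39 in EB WT. It had 1.14 in the ES library labelled Eed KO and 0.0389 in ES WT, and 0.163 in shSetd2 and 0.236 in shCtrl. A single library is therefore high, and the next in order, EB WT and the ES library labelled Eed KO, lie close together. The difference was 4.49 in EBs, the rank 38 of 14772 expressed genes from the highest, and 1.04 in ES cells, just past the size rule. With shCtrl in place of ES WT the ES difference was 0.79, within the rule.

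Tbx4, a T-box gene of the hindlimb, the lung mesenchyme and the allantois (mm9 chromosome 11, 85703565 to 85729599), stayed low. Transcript NM_011536 had 2.68 FPKM in the EB library labelled Eed KO, 0.322 in EB WT and 0.379 in ES WT, and was listed at 0 in the ES library labelled Eed KO. Transcript NM_172798 had 1.36 in the EB library labelled Eed KO, 0.0270 in EB WT and 0.453 in the ES library labelled Eed KO, and was listed at 0 in ES WT. Which transcript carries the value thus differs between the ES libraries. Summed, the gene had 4.04 in the EB library labelled Eed KO and 0.349 in EB WT, 0.453 in the ES library labelled Eed KO and 0.379 in ES WT, and 0.247 in shSetd2 and 0.163 in shCtrl. On the sums the difference was 1.90 in EBs and 0.08 in ES cells, and only the EB library labelled Eed KO stands out.

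Barx1, a BarH-like homeobox gene that in the stomach mesenchyme restrains Wnt signalling through secreted Sfrp proteins (NM_007526, mm9 chromosome 13, 48758405 to 48761876), had 42.6 FPKM in the EB library labelled Eed KO and 0.759 in EB WT. It had 6.32 in the ES library labelled Eed KO and 0.558 in ES WT, and 0.598 in shSetd2 and 0.487 in shCtrl. Both libraries labelled Eed KO are high, and the 4 others lie between 0.487 and 0.759. The difference was 4.63 in EBs, rank 37 of 14772 from the highest, and 2.23 in ES cells, rank 55. With shCtrl as the control the ES difference was 2.30, so Barx1 is the 1 member called higher in ES cells against either control.

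Barx2, its relative with roles in muscle and in cell adhesion (NM_013800, mm9 chromosome 9, 31653629 to 31720870), had 1.45 FPKM in the EB library labelled Eed KO and 0.811 in EB WT. It had 0.315 in the ES library labelled Eed KO and 0.325 in ES WT, and 0.171 in shSetd2 and 0.0465 in shCtrl. It never exceeded 1.45 in these libraries, and its differences of 0.44 in EBs and -0.01 in ES cells were within the size rule.

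Msx1, a homeobox repressor of limb, tooth and palate (NM_010835, mm9 chromosome 5, 38211730 to 38215824), had 9.87 FPKM in the EB library labelled Eed KO and 20.9 in EB WT. It had 0.691 in the ES library labelled Eed KO and 0.677 in ES WT, and 0.557 in shSetd2 and 0.298 in shCtrl. All 4 ES libraries are below 1 and both EB libraries are well above them. The difference of -1.01 in EBs barely passed the size rule. The median of all expressed genes in that comparison was itself -0.14, and with median-of-ratios rescaling the Msx1 difference was -0.86, within the rule. In ES cells it was 0.01.

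Msx2, which acts beside Msx1 in skull and limb (NM_013601, mm9 chromosome 13, 53562250 to 53568149), had 16.5 FPKM in the EB library labelled Eed KO and 15.2 in EB WT. It had 4.54 in the ES library labelled Eed KO and 1.64 in ES WT, and 1.96 in shSetd2 and 2.12 in shCtrl. It is the 1 member at 1 FPKM or more in all 6 libraries, and the EB values nearly coincide, with a difference of 0.11. In ES cells the difference was 1.07, and 0.83 with shCtrl as the control, which is within the size rule.

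Vax2, a homeobox gene of the ventral eye (NM_011912, mm9 chromosome 6, 83642800 to 83688298), had 11.1 FPKM in the EB library labelled Eed KO and 2.06 in EB WT. It had 3.63 in the ES library labelled Eed KO and 0.412 in ES WT, and 0.862 in shSetd2 and 2.16 in shCtrl. The control ES libraries lie apart, by 1.16. The ES library labelled Eed KO was above both, but the size of its difference depends on the control. The difference was 1.99 in EBs. In ES cells it was 1.71 against ES WT and 0.55 against shCtrl, within the rule.

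**Figure D2:**
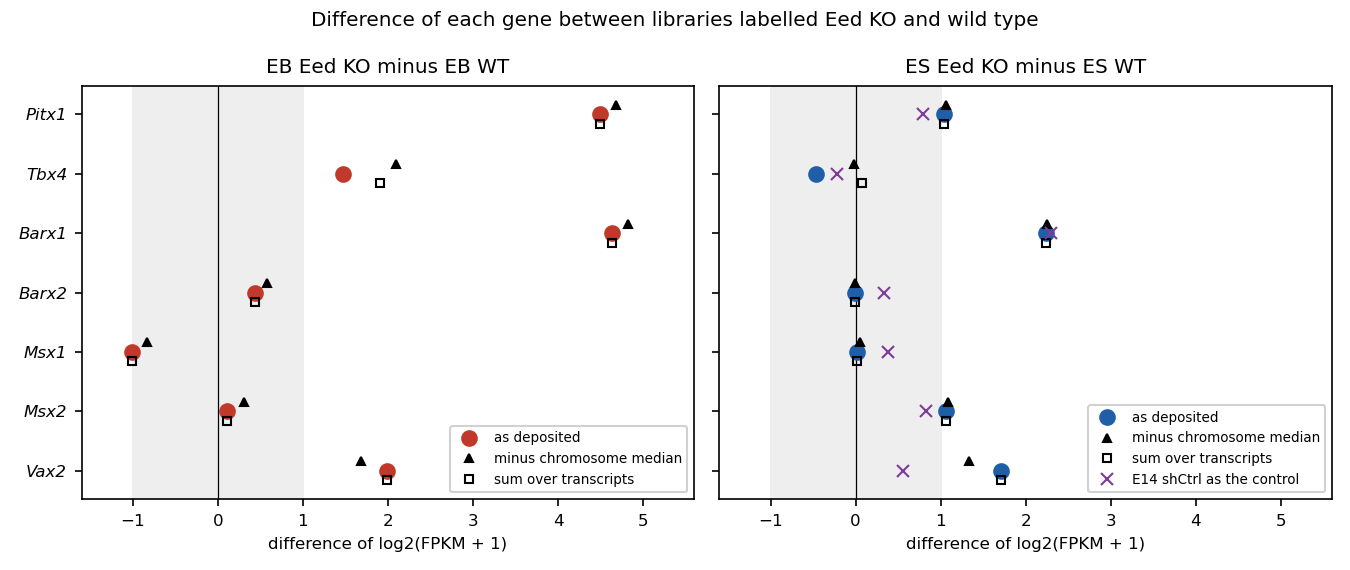
Difference of log2(FPKM + 1) for each gene between the library labelled Eed KO and wild type, in EBs (left) and ES cells (right), with 1 library per group. Large points are the values as deposited, small symbols the alternatives, and the grey band marks sizes under 1. Pitx1 and Barx1 stand above 4 in EBs under each setting drawn, and in ES cells Barx1 alone stays outside the band with shCtrl as the control.

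In the comparison of the EB library labelled Eed KO with EB WT, 4 of the 7 genes were higher, where 7.68% of 14772 expressed genes were, and 1 was lower, where 9.82% were. Median-of-ratios scaling turned the split of all genes round, to 1391 higher and 1149 lower, against 1135 and 1450 as deposited. In ES cells, relative to ES WT, 4 were higher, where 2.82% of expressed genes were, and 0 were lower, where 3.01% were, with splits of 431 and 385 after that scaling and 417 and 445 as deposited. Both contrasts helped to choose the members, so nothing is read from these shares. Against shCtrl the ES count of higher members was 1, Barx1, where 4.73% of 14820 expressed genes were higher. The Eed difference in EBs minus that in ES cells was 3.45 for Pitx1, 2.40 for Barx1, 0.28 for Vax2 and, on summed transcripts, 1.83 for Tbx4. It was -1.02 for Msx1 and -0.96 for Msx2. With a pseudocount of 0.1 in place of 1, which weighs low values more, it was 1.99 for Pitx1, whose ES WT value is 0.0389, and -0.48 for Vax2, whose direction thus turned. By the size rule 3 of the 7 genes were higher in this difference of differences, where 9.13% of expressed genes were, and 1 was lower, where 10.1% were. It is built from the contrasts that helped to choose the members, so nothing is read from these shares either. Tbx4, 1 of the 3, reached 1 FPKM only in the EB library labelled Eed KO.

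**Figure D3:**
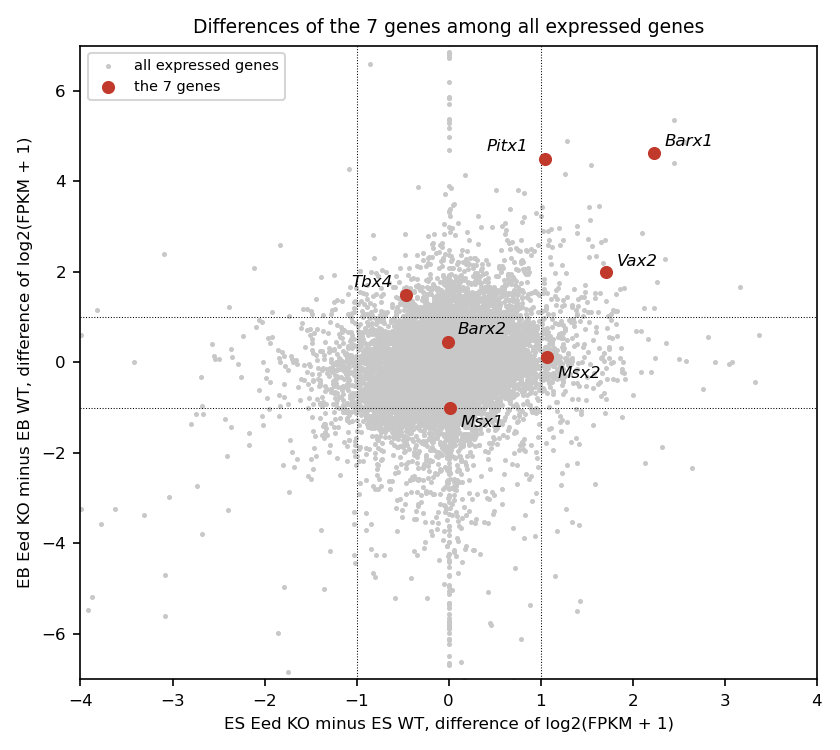
Difference of log2(FPKM + 1) between the library labelled Eed KO and wild type in ES cells (x axis) and EBs (y axis) for 14772 expressed genes in grey and the 7 genes in red, with dotted lines at a size of 1. A total of 102 genes lie outside the axes. Barx1 and Pitx1 lie at the upper edge of the cloud at 4.63 and 4.49 in EBs, and Msx1 lies below 0 in EBs at -1.01.

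Differentiation under wild type and under the Eed KO label gave different members the larger difference. Between EB WT and ES WT, Msx1 differed by 3.71 and Msx2 by 2.62, Pitx1 by 1.20 and Vax2 by 1.11, while Barx1 was at 0.18 and Barx2 at 0.45. Thus 4 of the 7 genes were higher in EB WT, where 19.3% of expressed genes were, and 0 were lower, where 14.2% were. With shCtrl as the baseline 2 were higher, Msx1 and Msx2, where 23.0% of expressed genes were, a share near that of the members. Pitx1 was then at 0.95 and Vax2 at -0.05. Between the EB and ES libraries labelled Eed KO, Pitx1 differed by 4.65, Msx1 by 2.68, Barx1 by 2.57, Msx2 by 1.66 and Vax2 by 1.39. The library labelled EB Eed KO had 6 of the 7 genes higher, where 19.7% of expressed genes were, and 0 lower, where 18.5% were. Barx2, at 0.90, was the exception. Tbx4 was at 1.88 through a transcript listed at 0 in the ES library labelled Eed KO, and at 1.79 on summed transcripts. The EB and ES libraries of a genotype also enter the Eed comparisons, so these differences share samples with those above.

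Setd2, which trimethylates lysine 36 of histone H3, was knocked down in E14 cells, a contrast with no part in the E36 comparisons that chose the genes. Only Msx2 and Vax2 passed the level filter there. Msx2 differed by -0.08 and Vax2 by -0.76 between shSetd2 and shCtrl, both within the size rule, so 0 of these 2 genes were higher, where 0.706% of expressed genes were, and 0 were lower, where 1.70% were. Vax2 was rank 406 of 12317 from the lowest, and with a pseudocount of 0.1 it was at -1.23. Between shCtrl and ES WT, Vax2 was higher and Msx2 differed by 0.24, so 1 of 2 was higher, where 3.14% of expressed genes were, and 0 were lower, where 5.65% were. In both contrasts Vax2 passed the level filter only through shCtrl, the library where it was higher. The direction of its differences was thus set by the filter, and nothing is read from these counts.

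Position in the genome and overlapping transcripts touch some of these values. Chromosome 13 holds 3 of the members, Pitx1, Barx1 and Msx2, and its median difference was -0.19 in EBs and -0.02 in ES cells, near that of all genes. Vax2 lies on chromosome 6, with medians of 0.31 in EBs and 0.38 in ES cells, and Tbx4 on chromosome 11, with -0.62 and -0.45. After subtraction of the chromosome median, the EB difference was 1.68 for Vax2 and 2.09 for Tbx4. The nearest expressed neighbours of Barx1 and Pitx1 were within the size rule in EBs. Ptpdc1 and Phf2 beside Barx1 were at 0.29 and 0.00, and Pcbd2 and Macroh2a1 beside Pitx1 at 0.39 and -0.71. In ES cells Macroh2a1 was past the rule at 1.14, beside 1.04 for Pitx1 itself. Beside Vax2, Stambp was at 0.51 and Tex261 at 0.34 in EBs, and in ES cells Stambp was at 0.02 and Tex261 past the rule at 1.06. Brip1 beside Tbx4 was at -0.50 in EBs. Tbx2, the T-box relative on the other side of Tbx4, was at -0.59 in EBs, with 15.7 FPKM in the EB library labelled Eed KO and 24.1 in EB WT.

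Vax2 and Msx1 share their loci with antisense transcripts, and libraries that do not mark strand cannot separate the reads. Vax2os had 2.24 FPKM in the EB library labelled Eed KO and 0.0609 in EB WT, 5.91 in the ES library labelled Eed KO and 0.895 in ES WT, and 1.21 in shSetd2 and 3.06 in shCtrl. It thus exceeded Vax2 in all 4 ES libraries and was below it in both EB libraries. A further transcript at the Vax2 locus, NR_002873, had 4.22 in the EB library labelled Eed KO and 0.0890 in EB WT. Msx1os had 15.9 in the EB library labelled Eed KO and 30.4 in EB WT, and 1.17 in the ES library labelled Eed KO and 0.954 in ES WT. Its level was above that of Msx1 in each of the 6 libraries.

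**Figure D4:**
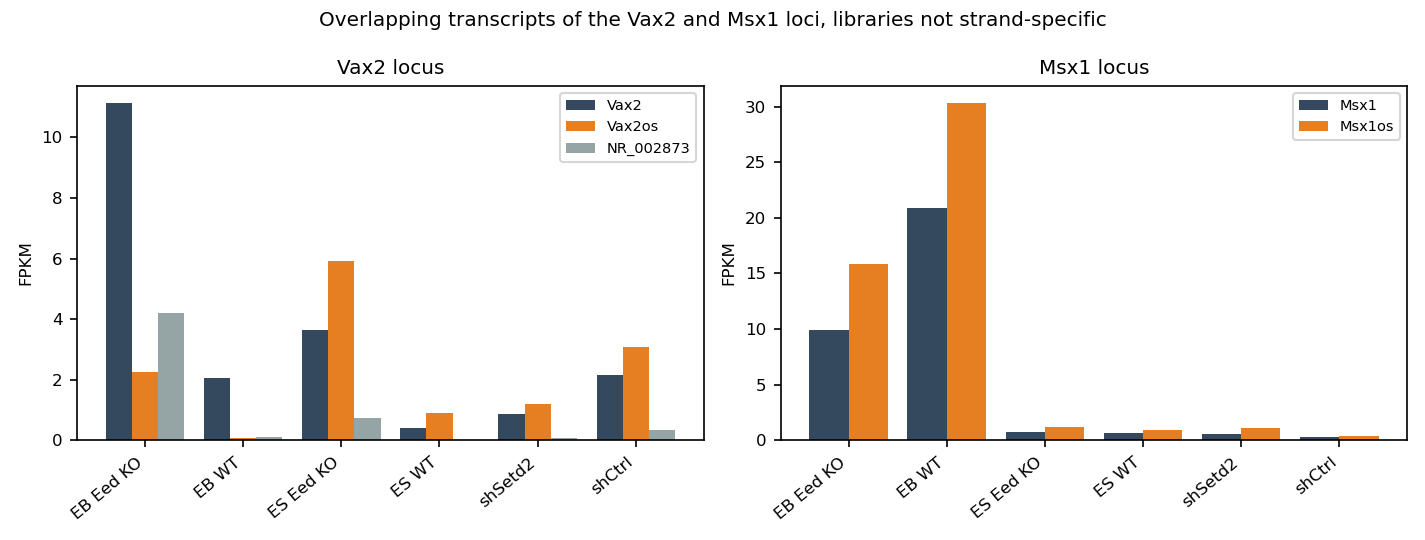
FPKM of the overlapping transcripts at the Vax2 locus (left) and the Msx1 locus (right) in the 6 libraries, as bars from 0. Vax2os exceeds Vax2 in the 4 ES libraries, with 5.91 against 3.63 in the ES library labelled Eed KO, and Msx1os exceeds Msx1 in all 6.

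The relatives of the members did not move together. Of 10 paralogues, 9 were expressed, and in EBs 3 were higher, where 7.68% of all expressed genes were, and 3 lower, where 9.82% were. Pitx3 and Vax1 were among the higher genes, Pitx3 with 2.53 FPKM in the EB library labelled Eed KO and 0.0595 in EB WT, and Vax1 with 1.31 and 0.121. Both passed the level filter only through the EB library labelled Eed KO, so they could not have been called lower. Msx3, the dorsal spinal cord member of the Msx family, had 1.24 in the EB library labelled Eed KO and 32.1 in EB WT. The neural BarH genes Barhl1 and Barhl2 were lower as well, Barhl2 with 0.230 in the EB library labelled Eed KO and 11.7 in EB WT. Tbx3 was within the rule in EBs at 0.93 and higher in ES cells, with 13.2 in the ES library labelled Eed KO and 3.16 in ES WT, but it had 12.3 in shCtrl. Values are of the transcript with the highest mean for each gene.

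The tissues in which these genes act were described through lists of their other genes. Beside the counts of each list, 7.68% of all expressed genes were higher and 9.82% lower in EBs. In these lists and the marker lists, some genes passed the level filter only through the EB library labelled Eed KO. Such a gene could be called higher there but not lower. In ES cells 2.82% of all expressed genes were higher and 3.01% lower, and against shCtrl 4.73% and 3.33%. Of 29 jaw and tooth genes, 16 were higher and 1 lower in the EB library labelled Eed KO, with a list median of 1.22 where all expressed genes had -0.14. Dlx1, Dlx2, Dlx4, Pax9, Lhx8 and Foxf2 passed the level filter through that library only, which raises the count and the median. Osr2, a palate and tooth factor, had 7.44 FPKM in the EB library labelled Eed KO and 0.400 in EB WT, and Pax9, needed for teeth, had 4.75 and 0.237. All 6 Dlx genes, which pattern the jaws, were higher, and Dlx5 had 8.32 in the EB library labelled Eed KO and 1.42 in EB WT. Tfap2b was the lower gene, with 0.929 in the EB library labelled Eed KO and 9.66 in EB WT. In ES cells 4 of the 29 were higher and 0 lower, and against shCtrl 2 were higher.

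Of 31 expressed limb bud genes, 14 were higher and 3 lower in EBs, with a median of 0.74. The 3 lower genes were Fgf4, Lhx2 and Lhx9, and Lhx2 had 7.60 FPKM in the EB library labelled Eed KO and 18.1 in EB WT. Hoxd13 had 57.3 FPKM in the EB library labelled Eed KO and 0.435 in EB WT, Hoxa13 had 21.7 and 0.263, and the T-box gene Tbx15 had 15.0 and 0.818. Of the genes that mark the hindlimb beside Pitx1 and Tbx4, Hoxc10 had 3.39 in the EB library labelled Eed KO and 0.123 in EB WT, and Hoxc11 had 9.72 in the EB library labelled Eed KO and was listed at 0 in EB WT. Tbx5, the forelimb counterpart of Tbx4, had 10.1 and 5.28 in the same libraries, a difference of 0.82. In ES cells 6 limb genes were higher and 1 lower, and against shCtrl 7 were higher and 1 lower.

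Of 18 stomach mesenchyme genes, 11 were higher and 2 lower in EBs, with a median of 1.30. Foxf1, a forkhead gene of the gut mesenchyme, had 30.6 FPKM in the EB library labelled Eed KO and 1.25 in EB WT, and Foxf2 had 7.96 and 0.473. The Wnt antagonists downstream of Barx1 in the stomach were at high levels in both, Sfrp2 with 71.7 in the EB library labelled Eed KO and 31.5 in EB WT, and Sfrp1, within the rule, with 114 and 76.5. Hoxa5 was lower, with 5.67 in the EB library labelled Eed KO and 46.9 in EB WT. In ES cells 3 genes were higher and 1 lower, and against shCtrl 2 were higher and 1 lower. Sfrp1 had 23.2 in the ES library labelled Eed KO, 6.19 in ES WT and 20.5 in shCtrl.

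Of 22 expressed ventral eye genes, 9 were higher and 3 lower in EBs, with a median of 0.76. The retinal genes Rax and Six6 were at most 0.123 FPKM in both EB libraries, and Pax6 had 3.62 in the EB library labelled Eed KO and 4.02 in EB WT. In ES cells 1 gene was higher, a share near the 2.82% of all expressed genes, and 3 were lower. Against shCtrl 1 was higher and 1 lower, near the 4.73% and 3.33% of all expressed genes.

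The BMP pathway, which induces Msx genes, had 4 of 31 expressed genes higher and 5 lower in EBs, with a median of -0.09. The ligand Bmp4 had 42.7 FPKM in the EB library labelled Eed KO and 15.6 in EB WT, and the inhibitory Smad6 had 30.8 and 12.2. The response gene Id4 was lower, with 3.58 in the EB library labelled Eed KO and 37.1 in EB WT, while Id1, Id2 and Id3 were within the rule at -0.47, -0.57 and -0.90. In ES cells 1 was higher, a share near the 2.82% of all expressed genes, and 3 were lower. Id1, a lower gene, had 84.7 in the ES library labelled Eed KO and 204 in ES WT. Against shCtrl, where Id1 was 104, 2 BMP pathway genes were higher and 0 lower. Of 17 expressed neural crest genes, 2 were higher and 8 lower in EBs, with a median of -0.28. Ednrb had 0.110 in the EB library labelled Eed KO and 13.3 in EB WT, and Pax3 had 1.61 and 10.04. In ES cells 2 neural crest genes were higher and 2 lower, and against shCtrl 2 were higher and 0 lower. Among 11 PRC2 genes, 0 were higher and 0 lower in either Eed comparison, and against shCtrl 1 was lower in ES cells, Phf19, a PRC2 accessory gene, with 3.36 FPKM in the ES library labelled Eed KO, 3.06 in ES WT and 8.31 in shCtrl. The lists overlap, were written with earlier results of these libraries known, and give no independent support for any direction.

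**Figure D5:**
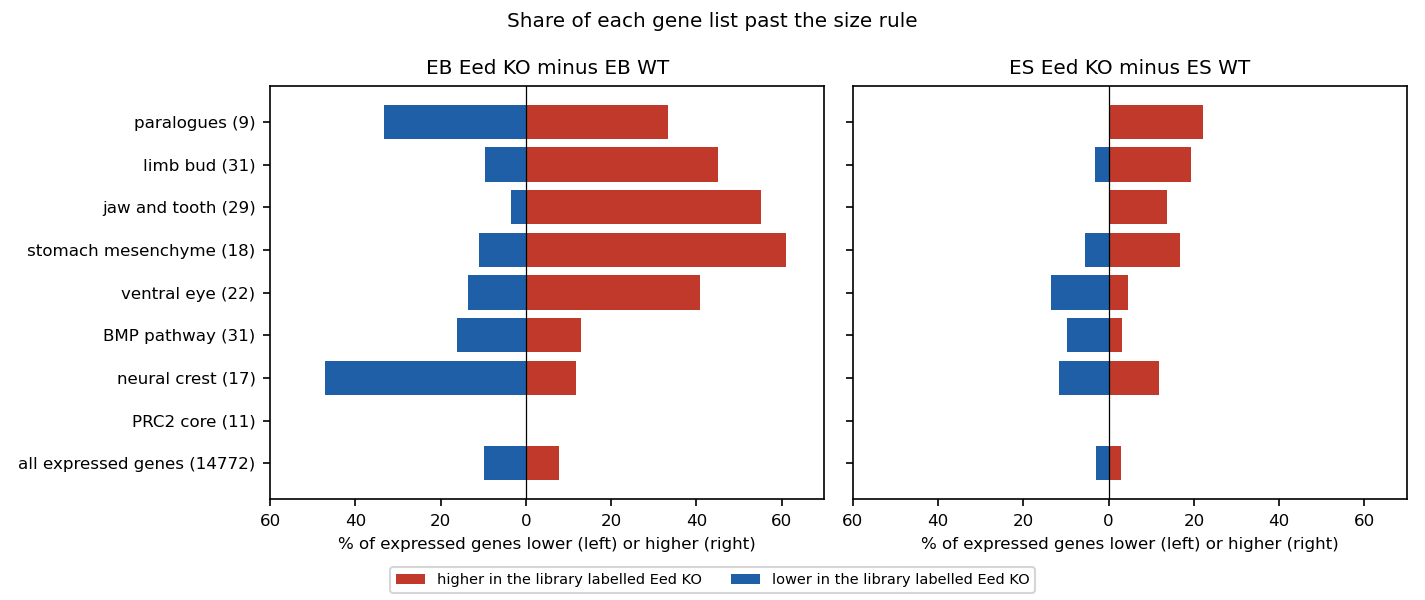
Share of the expressed genes of each list that were higher (red, right) or lower (blue, left) by at least 1 on the log2(FPKM + 1) scale in the library labelled Eed KO, in EBs (left panel) and ES cells (right panel), with the number of expressed genes in parentheses. In EBs the jaw and tooth list has 16 of 29 genes higher, the neural crest list has 8 of 17 lower, and all expressed genes have 7.68% higher and 9.82% lower.

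Markers of other cell types differed between the EB libraries, where 7.68% of all expressed genes were higher and 9.82% lower under the Eed KO label. All 10 neuron markers were lower in the EB library labelled Eed KO, with a summed level of 6.91 FPKM against 542 in EB WT, and Map2 and Elavl4 were listed at 0. Of 13 mesenchyme and fibroblast markers 6 were higher and 1 lower, with sums of 2022 in the EB library labelled Eed KO and 1447 in EB WT, and all 13 were at 1 FPKM or more in both. Of 11 epithelial markers 8 were higher and 1 lower, with sums of 358 in the EB library labelled Eed KO and 134 in EB WT. Of 9 pluripotency markers 0 were higher and 7 lower, with sums of 31.9 and 244. Extraembryonic endoderm markers summed to 138 in the EB library labelled Eed KO and 54.9 in EB WT, with 4 of 6 expressed genes higher. Gata6, with 52.6 and 17.6 in these libraries, and Gata4, with 24.8 and 3.30, are also on the stomach list. Sox17, Sox7, Afp, Ttr and Apoa1 were below 1 FPKM in both. Trophoblast markers summed to 83.3 and 9.90, with 3 of 7 higher and Prl3d1 at 0 in both. The 3 were Hand1, with 51.2 and 0.782 in the same libraries, Gata3, with 19.0 and 3.87, and Esx1, with 8.75 and 2.07. Cdx2, Eomes, Elf5 and Ascl2 were below 1 FPKM in both EB libraries. Cardiac muscle markers summed to 13.4 and 4.75, with 1 of 5 expressed genes higher, 1 lower, and Myl2 and Tnnt2 listed at 0 in the EB library labelled Eed KO. Nkx2-5 alone, which is also on the stomach list, had 9.31 in the EB library labelled Eed KO and 0.276 in EB WT. Endothelial and blood markers summed to 3.25 and 5.01, with 0 of 4 higher and 1 lower. In ES cells the mesenchyme sums were 74.2 in the ES library labelled Eed KO and 151 in ES WT, the trophoblast sums 58.2 and 13.99, and the pluripotency sums 4657 and 3373. Vim alone gave 50.1 and 117 of the mesenchyme sums, and Dppa5a 2423 and 1315 of the pluripotency sums. Where 2.82% of all expressed genes were higher and 3.01% lower, 3 of 13 mesenchyme markers were higher and 3 lower. Of 7 expressed trophoblast markers 4 were higher and 0 lower, and of 9 pluripotency markers 2 were higher and 0 lower. In shCtrl the mesenchyme sum was 96.0, the trophoblast sum 20.1 and the pluripotency sum 4402. The part of cell composition in the values of the 7 genes was not tested.

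The genes most like each member were found by the Euclidean distance over the 6 values of log2(FPKM + 1), for the 5 members that reached 5 FPKM. Nearest to Barx1 were Hoxd13 at 0.762, Hoxa10 at 1.02 and the matrix protein gene Npnt at 1.56. Nearest to Pitx1 were Foxf1 at 0.881, the neurokinin precursor Tac2 at 0.916 and H2-Q9 at 1.32, an MHC gene whose near-identical copies make its value uncertain. Msx1 was nearest to Samd14 (0.342), Tspan18 (0.489) and Stox2 (0.577). Msx2 was nearest to Letmd1 (0.502), the Notch target Hey1 (0.541) and the methylcytosine oxidase gene Tet3 (0.607). Vax2 was nearest to the prostaglandin synthase gene Ptges (0.755), the retinol carrier Rbp4 (1.03) and Eva1a (1.04). Pearson's r for these 15 pairs lay between 0.953 and 0.998, a description over 6 libraries. Among the members, Barx1 and Pitx1 lay 2.02 apart and Msx1 and Msx2 lay 2.55 apart, and the largest distance among the 21 pairs was 5.44, between Tbx4 and Msx2.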

How the data were processed

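RNA extracted with Trizol was measured in 6 libraries made with the TruSeq RNA version 2 kit, per the labels' protocols. That kit does not mark strand. The deposited FPKM values for 29851 RefSeq transcripts were made by the authors with TopHat and Cuffdiff on mm9, per the submitters' processing notes. Tool versions and the scaling used were not given in the sources used here. Fragment totals are not part of the table. Symbols came from a RefSeq table of GRCm38.p6, used for names and promoter sequences, and 29300 transcripts matched. Each gene took its transcript with the highest mean. Coordinates are the table's, written from 1.

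Differences are of log2(FPKM + 1), with a pseudocount of 1, which understates change at low levels, and a size rule of 1. E36 comparisons used 14772 genes at 1 FPKM or more in at least 1 of 4 libraries. There were 7 comparisons and no test. The functions were tested on simulated data (Python 3.11.15, pandas 2.3.3).

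The members, 8 gene lists and 9 marker lists were chosen with earlier results of these data known. Named genes are the members, label checks, the genes with the largest list differences at 5 FPKM or more (up to 4 per list), nearest neighbours and nearest profiles. Others from the lists (Tbx5, Pitx3, Vax1, Tbx3 in EBs, Pax9, the Dlx genes, Hoxc10, Sfrp1 and Sfrp2, Rax, Six6, Pax6, Bmp4, Smad6, Id1 to Id3, Phf19) were chosen after their values were seen. The named trophoblast and extraembryonic endoderm markers were also chosen after their values were seen. So were Fgf4, Lhx2, Lhx8, Lhx9, Snai2, Sox8 and Sox10 from the lists, and the markers Vim and Dppa5a. Alternatives varied pseudocount, filter, scaling, transcript choice, chromosome centring and control. Some named list genes are not reported here. A planned comparison of protein sequences was not run.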

Additional observations from a re-analysis of the deposited data

Results flagged for a closer look

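The Eed difference pointed in opposite directions in EBs and ES cells for 2 members, 1 library per group, and the contrast between them was not tested. For Tbx4 the difference in EBs minus that in ES cells was 1.94, with 1.48 in EBs and -0.46 in ES cells. That ES value rests on a transcript listed at 0 in the ES library labelled Eed KO, and on summed transcripts the ES difference was 0.08, which is no longer opposite. For Msx1 it was -1.02, with -1.01 in EBs and 0.01 in ES cells, so the ES value is near 0.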

How the results depend on the processing

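No paired analysis was possible because each group has 1 library, and no replicate could be left out. Under the alternatives, 115 counts of called members were within 1.5 times the reported count and 15 were not. With E14 shCtrl as the control, 1 member was higher in the ES library labelled Eed KO and 2 were higher in EB WT, where Vax2 turned to -0.048. The 1 member lower in EBs, Msx1, became 0 with upper-quartile, median-of-ratios and equal-total scaling and after subtracting the chromosome median, with differences from -0.93 to -0.83. In the Eed difference of EBs minus ES cells the lower count was 2 with a pseudocount of 0.1 or 0.5 and with equal totals, and 0 with upper-quartile and median-of-ratios scaling and the chromosome median. A pseudocount of 0.1 gave 1 lower member in ES cells, Tbx4 at -2.26 through the value listed at 0, and 1 lower in shSetd2, Vax2. A filter of 5 FPKM left 0 higher between shCtrl and ES WT. The Pitx1 and Barx1 differences in EBs lay between 4.49 and 5.64 over all alternatives. Of the list counts 222 stayed within 1.5 times and 50 did not, among them limb bud genes higher in ES cells, 16 with a pseudocount of 0.1 against 6. Median-of-ratios scaling gave 1391 genes higher and 1149 lower in EBs, against 1135 and 1450 as deposited. Depth limits values under 1 FPKM most, and the number of reads behind each is unknown.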
